A study of Solanum lycopersicum with 8 samples.

Results

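Genes of abscisic acid (ABA) metabolism and signalling and of dehydrins were examined in whole tomato seedlings (*Solanum lycopersicum*, cultivar Micro-Tom, wild type). The seedlings had been treated with 5 μM Torin2, an ATP-competitive TOR inhibitor (4 libraries, each a biological replicate), or mock-treated with water holding 0.1% DMSO (4 libraries). All seedlings were 10 days old and grew at 25 °C with 16 h of light and 8 h of dark, and the treatment lasted 2 h. The genes were taken by identifier from a list of 40, comprising 2 NCED, 4 CYP707A, 14 PYL, 7 clade A PP2C, 5 SnRK2 and 3 AREB genes and 5 genes for dehydrins and a related late embryogenesis abundant (LEA) protein. Of these 40 genes, 37 had a row among the 34688 listed and 36 reached the filter, a mean of at least 0.1 FPKM (fragment counts scaled to gene length and to library depth) over the 8 libraries. The other 3, the PP2C genes Solyc05g052980 and Solyc06g051940 and the dehydrin gene Solyc04g082200, were not analysed here. Just inside the filter was the CYP707A gene Solyc04g071150 with a mean of 0.301 FPKM. Outside it was the PYL gene Solyc02g076770, with a single fragment in Torin2 replicate 3 and none elsewhere, below the floor of 3 fragments at which a gene counts as detected. The files hold no annotation and the paper names few of these genes, so that their split into families follows the order of the list and general knowledge of tomato, and every family median, sum and share below rests on it.

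ABA is the plant hormone of drought, cold and salt stress. NCED enzymes cleave carotenoids in the rate-limiting step of its synthesis, and CYP707A enzymes, cytochrome P450 hydroxylases, break it down. Once PYL receptors have bound ABA they inhibit the clade A PP2C phosphatases, which frees SnRK2 kinases to phosphorylate AREB bZIP factors, and these switch on genes for protective proteins such as dehydrins. In *Arabidopsis*, TOR kinase phosphorylates PYL receptors, so that the ABA pathway and TOR are known to be linked there at the protein level.

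The depth was between 36989257 and 39868131 fragments per library. The 22330 genes at or above the filter were tested with limma on log2(FPKM + 0.1), and a gene is said to have risen or fallen where its Benjamini-Hochberg adjusted p was under 0.05. The median log2 fold change was 0.16 over these 22330 genes in FPKM as deposited, and median-of-ratios scaling brought it to 0.01. Within both conditions the libraries also fell into 2 kinds, taken here from the values and named in no label. Once the condition means were subtracted, 53.6% of the variance lay on 1 principal component, with Torin2 replicates 2 and 4 and mock replicates 1 and 2 on one side (the first kind) and the other 2 Torin2 and 2 mock libraries on the other side (the second kind). Of 4 genes taken as shoot markers from general knowledge of tomato, 1 fell (Solyc02g070980) and none rose, where 5.08% of all genes fell. The log2 fold changes of the 4 were -0.71 for Solyc02g085950, -0.70 for Solyc02g070980, -0.35 for Solyc03g034220 and 0.13 for Solyc03g005780. The summed level of these markers, most of it from Solyc03g034220, was 14839 to 23136 FPKM in Torin2-treated and 20824 to 29940 FPKM in mock-treated seedlings. Of 4 genes taken as root markers in the same way, 3 were tested and 1 fell, and the levels did not all go one way. Their sum, most of it from Solyc09g090070, was 39.5 to 55.6 FPKM in Torin2-treated and 59.0 to 103 FPKM in mock-treated seedlings, while Solyc01g094910 was at 1.66 to 3.38 FPKM in Torin2-treated and 0.784 to 1.39 FPKM in mock-treated seedlings (log2 fold change 1.04, limma adjusted p = 0.0507). Solyc02g069200, the gene of this list that was not tested, stayed at or under 0.119 FPKM in all 8 libraries. The part of these markers in the results below was not tested, and in whole seedlings fewer cells of a type and less RNA per cell cannot be told apart.

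Torin2 changed few of these transcripts. Of the 36 genes tested, 2 rose and 2 fell. The LEA gene Solyc01g095140 rose 4.82-fold and the PYL receptor gene Solyc12g055990 1.74-fold, while the SnRK2 kinase gene Solyc05g056550 fell 2.35-fold and a second PYL receptor gene, Solyc10g085310, 1.59-fold. The 2 genes that rose are 5.56% of those tested, against 7.53% of all genes, and the 2 that fell are also 5.56%, against 5.08% of all genes, so that both shares were near the background. In limma-voom on recovered fragments the same 4 genes passed, 2 higher and 2 lower, where 9.06% of all genes were higher and 5.22% lower. With the added requirement of an absolute log2 fold change over 1, the LEA gene alone remained among those higher and the SnRK2 gene alone among those lower, where the background was 5.31% and 3% of all genes. The median log2 fold change of the 36 genes was 0.18, beside 0.16 over all genes. Values lay above 0 for 23 genes and below 0 for 13, where 61.4% of all genes lay above 0. Before adjustment 8 genes had a p under 0.05, 6 of them with a higher and 2 with a lower value, against 19% and 10.1% of all genes. The Torin2 libraries of 3 genes were all above and those of 2 genes all below the mock libraries, which held for 11.4% and 7.77% of all genes. These were the 4 genes above and the CYP707A gene Solyc04g071150.

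**Figure D1:**
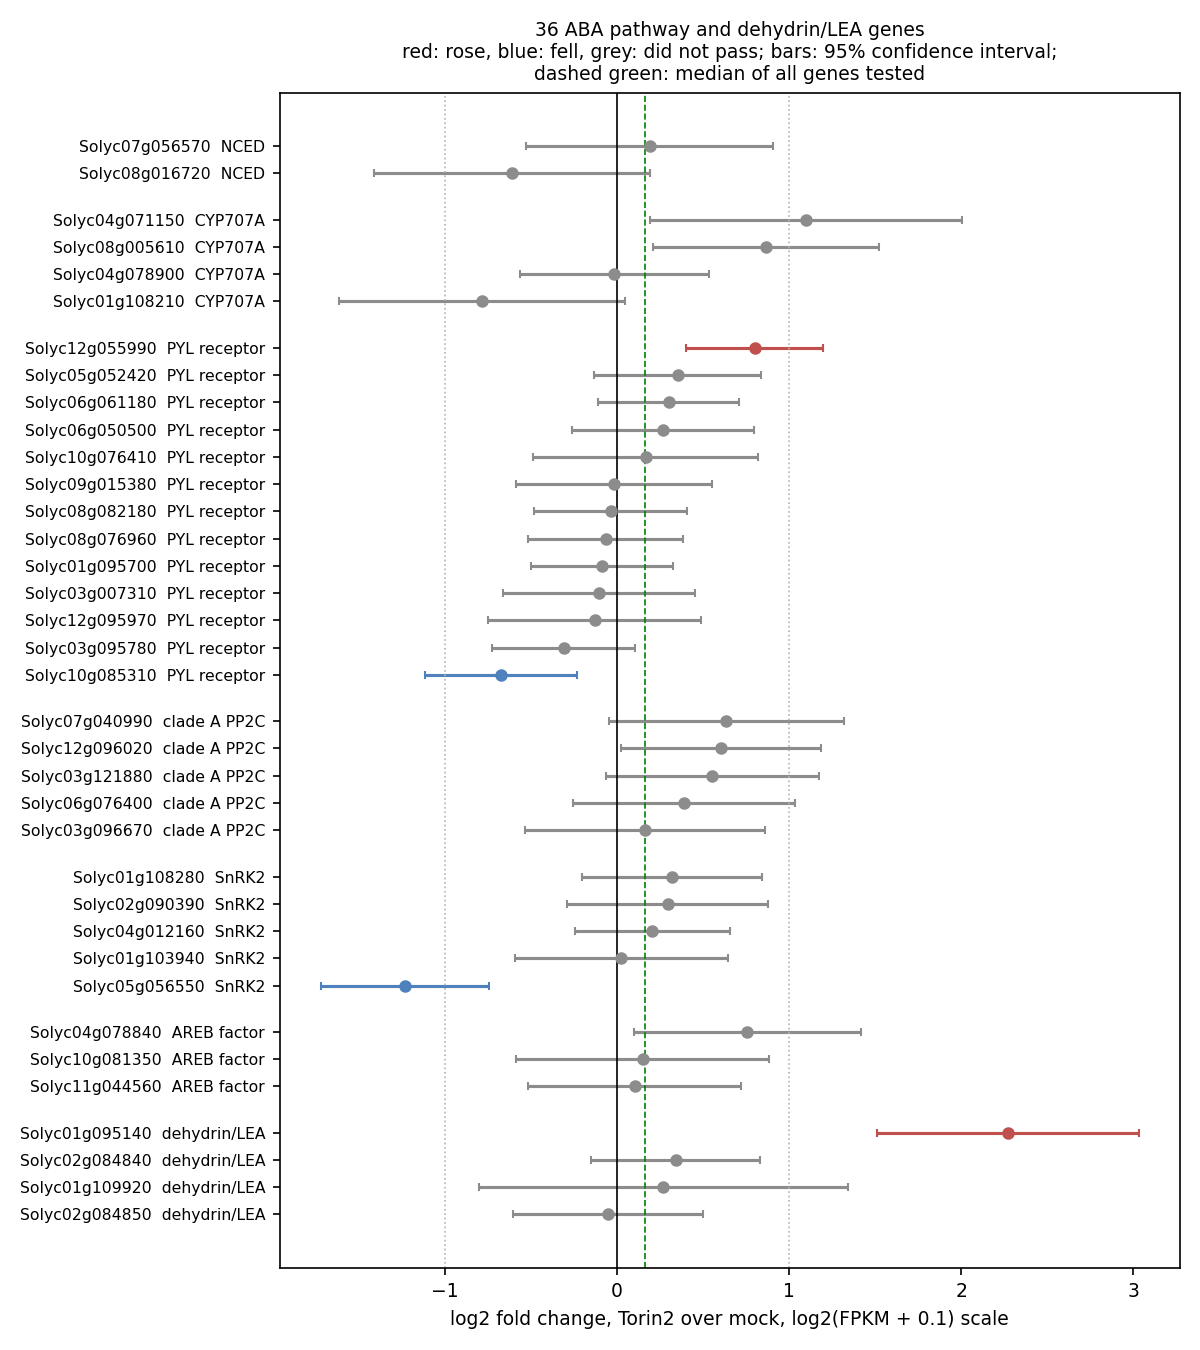
Log2 fold change of Torin2-treated over mock-treated seedlings on the log2(FPKM + 0.1) scale for the 36 genes tested, grouped by step of the pathway, with 95% confidence intervals from limma. Genes that rose are red, genes that fell blue and the others grey, the dashed line is the median of all genes tested (0.16), and the dotted lines mark a log2 fold change of 1 in either direction. Solyc01g095140 lies farthest to the right at 2.27 and Solyc05g056550 farthest to the left at -1.23.

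For ABA synthesis, neither NCED gene passed the test, nor did either in limma-voom, and neither had an unadjusted p under 0.05. The higher expressed one, Solyc07g056570, was measured at 1.96, 5.48, 3.004 and 5.31 FPKM in Torin2 replicates 1 to 4, against 3.83, 3.29, 2.32 and 3.43 FPKM in mock replicates 1 to 4. Torin2 replicates 2 and 4 were above all mock libraries and Torin2 replicate 1 below them, so that the conditions overlapped. Its log2 fold change was 0.19 (95% confidence interval -0.53 to 0.91), and in the first kind of libraries alone it was 0.59, in the second -0.21. Solyc08g016720, with 9 to 35 fragments per library, averaged 0.281 ± 0.107 FPKM in Torin2-treated and 0.463 ± 0.0719 FPKM in mock-treated seedlings (SD, n = 4 each). Its log2 fold change was -0.61 (95% confidence interval -1.41 to 0.20). As a share of the summed FPKM of both NCED genes, Solyc07g056570 made up 91.1% to 94.6% in Torin2-treated and 86.6% to 88.0% in mock-treated seedlings.

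Among the 4 genes for ABA breakdown, the values went both ways and none passed the test, in limma or in limma-voom. Before adjustment, 2 of them had a p under 0.05. The most highly expressed, Solyc04g078900, was at 8.87, 13.1, 7.60 and 12.9 FPKM in Torin2 replicates 1 to 4 and at 8.92, 11.4, 8.67 and 13.5 FPKM in mock replicates 1 to 4. The conditions coincided in range, and the log2 fold change was -0.01 (95% confidence interval -0.56 to 0.54). In the first kind of libraries alone it was 0.36, in the second -0.39.
Solyc08g005610 was at 8.61, 11.3, 4.99 and 13.3 FPKM in Torin2 replicates 1 to 4, against 5.92, 5.56, 3.60 and 4.77 FPKM in mock replicates 1 to 4. Torin2 replicates 1, 2 and 4 exceeded every mock library, and Torin2 replicate 3 lay among them. The log2 fold change was 0.87 (SE 0.31 and limma adjusted p = 0.0772, over the alternatives 0.00578 to 0.214), and in the first kind of libraries alone it was 1.08, in the second 0.65. It passed the test without Torin2 replicate 3 (log2 fold change 1.14, limma adjusted p = 0.0231), with the kind of library as a covariate (limma adjusted p = 0.00578) and once each library's trend over gene length had been taken out (log2 fold change 0.67, limma adjusted p = 0.0278). The kinds come from these values, so that this covariate takes up variance by its making. With it 25.7% of all genes rose, and with the length trend removed 11.7%.
Solyc04g071150 was at 0.649, 0.548, 0.275 and 0.308 FPKM in Torin2 replicates 1 to 4, against 0.172, 0.152, 0.0451 and 0.257 FPKM in mock replicates 1 to 4. The lowest Torin2 library lay above the highest mock library, on 3 to 43 fragments per library. The log2 fold change was 1.10 (95% confidence interval 0.19 to 2.00, limma adjusted p = 0.102), and the exact permutation test (two-sided, 70 assignments of the libraries) had p = 0.0286, the smallest that 4 libraries against 4 allow. Any gene whose libraries do not overlap has this p, so that it adds nothing to the lack of overlap. In 11.4% of all genes the Torin2 libraries were likewise all above the mock libraries. Solyc01g108210, annotated as CYP707A4, averaged 0.888 ± 0.355 FPKM in Torin2-treated and 1.64 ± 0.721 FPKM in mock-treated seedlings (SD, n = 4 each), a log2 fold change of -0.78 (limma adjusted p = 0.196). It passed the test with median-of-ratios scaling (log2 fold change -0.93, limma adjusted p = 0.0423), after quantile normalization (log2 fold change -1.02, limma adjusted p = 0.0323), with the kind of library as a covariate (limma adjusted p = 0.0216) and with the length trend removed (limma adjusted p = 0.0439). With that covariate 12.6% of all genes fell, and with the length trend removed 13.9%. The share was not taken for the scaling or the quantile normalization. Of the summed FPKM of the 4 genes, Solyc08g005610 made up 37.0% to 48.1% in Torin2-treated and 23.9% to 35.2% in mock-treated seedlings, and CYP707A4 2.93% to 4.81% in Torin2-treated and 5.98% to 12.8% in mock-treated seedlings.

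The receptor genes held 1 gene that rose and 1 that fell among 13 tested, with a median log2 fold change of -0.04. Solyc12g055990 was measured at 57.6, 54.1, 55.5 and 62.8 FPKM in Torin2 replicates 1 to 4, against 31.2, 31.0, 34.2 and 35.3 FPKM in mock replicates 1 to 4. The 4 Torin2 libraries lay close together and well above the 4 mock libraries. Its log2 fold change was 0.80 (SE 0.19 and limma adjusted p = 0.0122, over the alternatives 0.00041 to 0.0464), which is 0.64 once the median over all genes is subtracted. In the first kind of libraries alone it was 0.90 and in the second 0.70, and the gene passed the test in all 8 fits that left out 1 library.
Solyc10g085310 went the other way, with 99.7, 65.5, 103 and 81.5 FPKM in Torin2 replicates 1 to 4, against 126, 133, 166 and 127 FPKM in mock replicates 1 to 4. Every Torin2 library was below every mock library. The log2 fold change was -0.67 (SE 0.21 and limma adjusted p = 0.0443), which is -0.84 once the median over all genes is subtracted, and in the first kind of libraries alone it was -0.83, in the second -0.52. This call was close to the threshold. It was lost in 6 of the 8 fits that left out 1 library, those without Torin2 replicate 2 or 4 or any single mock replicate, with an adjusted p of up to 0.131 (limma). Over the 8 fits the log2 fold change was between -0.76 and -0.54. It was also lost with median-of-ratios scaling (limma adjusted p = 0.0599), with a variance without trend (limma adjusted p = 0.0873) and with the replicate number as a block (limma adjusted p = 0.0561). For both genes the exact two-sided permutation p was 0.0286, the smallest possible, as for any gene whose libraries do not overlap.

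The receptor family was expressed over a wide range of levels. Per length, the highest mean over the 8 libraries was that of Solyc06g050500, with 278, 135, 217 and 174 FPKM in Torin2 replicates 1 to 4 and 136, 136, 234 and 158 FPKM in mock replicates 1 to 4. Its libraries of the second kind were the higher ones in both conditions, and its log2 fold change of 0.27 (95% confidence interval -0.26 to 0.80) did not pass the test. In FPKM, it averaged 201 ± 61.3 in Torin2-treated and 166 ± 46.3 in mock-treated seedlings (SD, n = 4 each). Solyc03g095780 averaged 160 ± 22.4 FPKM in Torin2-treated and 199 ± 31.7 FPKM in mock-treated seedlings, Solyc08g076960 163 ± 33.2 FPKM in Torin2-treated and 170 ± 34.3 FPKM in mock-treated seedlings, and Solyc10g076410 155 ± 78.7 FPKM in Torin2-treated and 129 ± 34.3 FPKM in mock-treated seedlings (SD, n = 4 each). The libraries of these 4 genes overlapped in level within either condition. Below them stood Solyc01g095700, with 115 ± 19.3 FPKM in Torin2-treated and 121 ± 7.78 FPKM in mock-treated seedlings. The lowest of the 13 was Solyc09g015380, with 6.998 ± 2.05 FPKM in Torin2-treated and 6.81 ± 0.398 FPKM in mock-treated seedlings.
None of the other receptor genes passed the test, with log2 fold changes of 0.35 for Solyc05g052420, 0.30 for Solyc06g061180, 0.17 for Solyc10g076410, -0.02 for Solyc09g015380, -0.04 for Solyc08g082180, -0.06 for Solyc08g076960, -0.08 for Solyc01g095700, -0.10 for Solyc03g007310, -0.13 for Solyc12g095970 and -0.31 for Solyc03g095780. Summed over the family, receptor transcripts were at 1140 ± 163 FPKM in Torin2-treated and 1140 ± 147 FPKM in mock-treated seedlings (SD, n = 4 each). Within this sum, the share of Solyc12g055990 was 4.34% to 5.80% in Torin2-treated and 2.54% to 3.18% in mock-treated seedlings, and that of Solyc10g085310 7.02% to 8.74% in Torin2-treated and 11.5% to 12.6% in mock-treated seedlings. The sums overlapped between the conditions, and the shares of these 2 genes, which the test had picked out, did not.

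**Figure D2:**
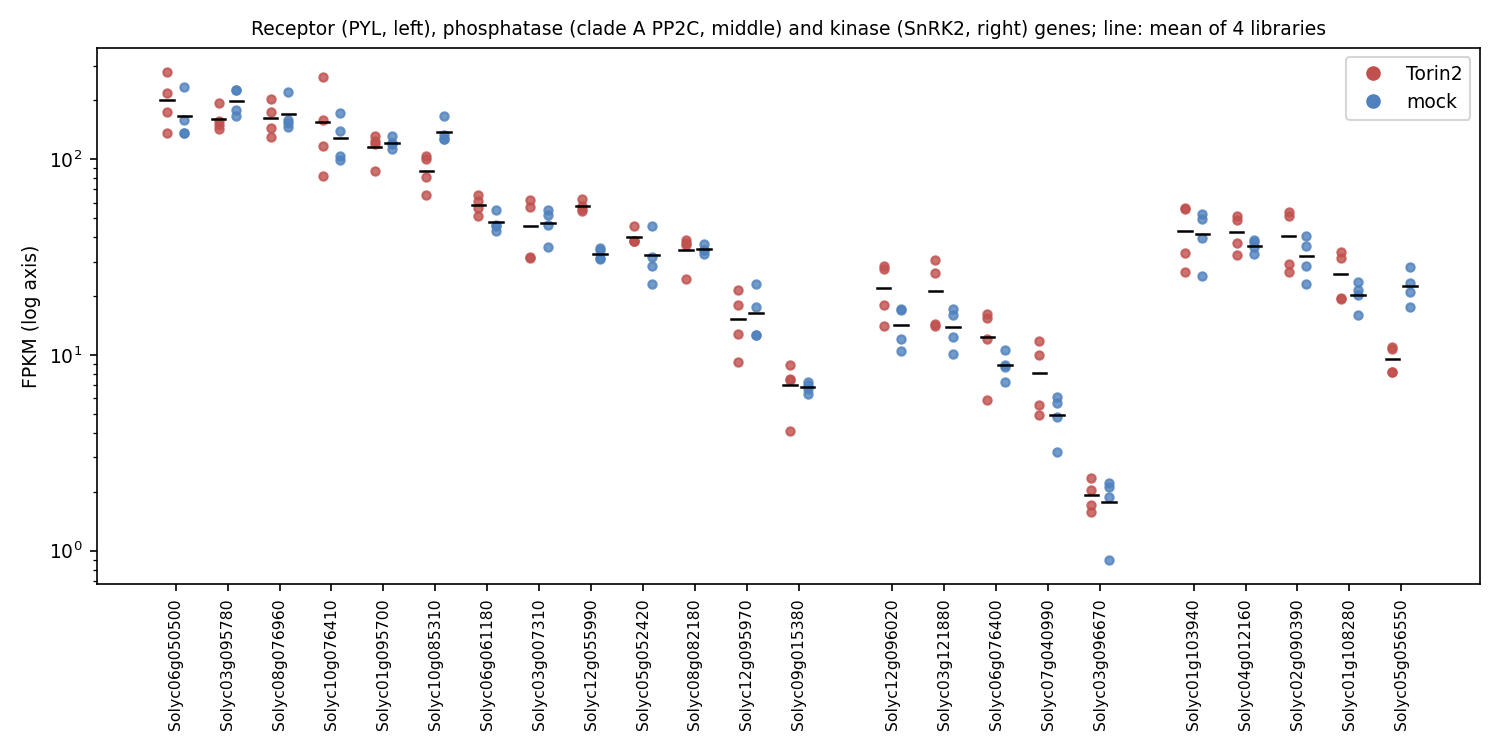
FPKM on a log axis of the 13 PYL receptor, 5 clade A PP2C and 5 SnRK2 genes tested, each family ordered by its mean over the 8 libraries, with a point per library (Torin2 left in red, mock right in blue) and a line at the mean of 4 libraries. The points of the 2 conditions do not overlap for Solyc12g055990, Solyc10g085310 and Solyc05g056550, and overlap for the other 20 genes.

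All 5 clade A PP2C genes analysed, whose products hold SnRK2 kinases inactive when ABA is absent, had log2 fold changes above 0, with a median of 0.56, and none passed the test in limma or limma-voom. That median was 0.40 with median-of-ratios scaling and 0.33 with the length trend removed, and 61.4% of all genes lay above 0. Before adjustment 1 of the 5 PP2C genes had a p under 0.05. That gene was Solyc12g096020, the most highly expressed, with 14.1, 28.4, 18.0 and 27.3 FPKM in Torin2 replicates 1 to 4, against 17.2, 16.995, 10.5 and 12.0 FPKM in mock replicates 1 to 4. Torin2 replicates 2 and 4 stood clear of all others, and replicate 1 lay within the mock range. The log2 fold change was 0.60 (SE 0.27 and limma adjusted p = 0.155, over the alternatives 0.00397 to 0.339), and in the first kind of libraries alone it was 0.70, in the second 0.50. Solyc03g121880 was at 14.0, 30.6, 14.4 and 26.2 FPKM in Torin2 replicates 1 to 4, against 16.0, 17.3, 10.1 and 12.3 FPKM in mock replicates 1 to 4, and its log2 fold change was 0.56 (limma adjusted p = 0.219). Here too the Torin2 libraries of the first kind were the highest of the 8. The log2 fold changes were 0.64 for Solyc07g040990, 0.39 for Solyc06g076400 and 0.16 for Solyc03g096670, and the last was -0.07 after quantile normalization. The 5 genes summed to 65.6 ± 23.2 FPKM in Torin2-treated and 43.6 ± 9.41 FPKM in mock-treated seedlings (SD, n = 4 each). With the kind of library as a covariate, 3 of the 5 rose, namely Solyc12g096020 (limma adjusted p = 0.00397), Solyc03g121880 (limma adjusted p = 0.00919) and Solyc07g040990 (limma adjusted p = 0.0138). With the length trend removed Solyc12g096020 (limma adjusted p = 0.00835) and Solyc07g040990 (limma adjusted p = 0.0466) rose, and without Torin2 replicate 1 Solyc12g096020 (limma adjusted p = 0.0473) and Solyc06g076400 (log2 fold change 0.71, limma adjusted p = 0.0483). With the covariate, 25.7% of all genes rose and 12.6% fell, and with the length trend removed 11.7% rose and 13.9% fell.

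Of the 5 SnRK2 kinase genes, 1 fell and the others did not pass the test. Which of the 5 kinases act in the ABA step described above was not tested here. Solyc05g056550, annotated as SAPK7 after the SnRK2 family of rice, was at 8.20, 11.0, 8.20 and 10.7 FPKM in Torin2 replicates 1 to 4, against 23.4, 28.1, 17.6 and 21.0 FPKM in mock replicates 1 to 4. The highest Torin2 library was well below the lowest mock library. The log2 fold change was -1.23 (SE 0.23 and limma adjusted p = 0.00315, over the alternatives 6.94e-05 to 0.0176; exact two-sided permutation p = 0.0286), which is -1.39 once the median over all genes is subtracted. In the first kind of libraries alone it was -1.24 and in the second -1.22, and between -1.34 and -1.12 when single libraries were left out. Among the 22330 genes, 508 had a lower log2 fold change.
The other 4 kinase genes had log2 fold changes of 0.03 to 0.32. Solyc01g103940, with the highest mean, was at 33.2, 55.6, 26.6 and 56.6 FPKM in Torin2 replicates 1 to 4 and at 49.3, 52.3, 25.2 and 39.7 FPKM in mock replicates 1 to 4. In both conditions its libraries of the first kind were higher than those of the second, and the log2 fold change was 0.03 (95% confidence interval -0.59 to 0.65), with -0.13 after median-of-ratios scaling. It was 0.32 for Solyc01g108280, 0.30 for Solyc02g090390 and 0.21 for Solyc04g012160. SAPK7 made up 5.30% to 7.24% of the summed FPKM of the 5 kinase genes in Torin2-treated and 13.9% to 15.4% in mock-treated seedlings. The sum itself was 161 ± 47.5 FPKM in Torin2-treated and 152 ± 28.9 FPKM in mock-treated seedlings (SD, n = 4 each).

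None of the 3 AREB genes, which encode the bZIP factors that SnRK2 kinases activate, passed the test in limma or limma-voom, and 1 had an unadjusted p under 0.05. That gene was Solyc04g078840, with 4.93, 9.28, 4.15 and 8.60 FPKM in Torin2 replicates 1 to 4, against 4.25, 4.83, 2.82 and 3.30 FPKM in mock replicates 1 to 4. Torin2 replicates 1, 2 and 4 were above every mock library, and replicate 3 was not. Its log2 fold change was 0.76 (SE 0.31 and limma adjusted p = 0.117, over the alternatives 0.00311 to 0.28), and in the first kind of libraries alone it was 0.96, in the second 0.55. It passed with the kind of library as a covariate (limma adjusted p = 0.00311) and with the length trend removed (log2 fold change 0.62, limma adjusted p = 0.0118). As the kinds come from these values, that covariate takes up variance by its making. With it 25.7% of all genes rose, and with the length trend removed 11.7%. Solyc11g044560, the most highly expressed, was at 7.67, 19.1, 14.6 and 17.1 FPKM in Torin2 replicates 1 to 4 and at 13.9, 16.1, 9.45 and 12.9 FPKM in mock replicates 1 to 4, with a log2 fold change of 0.10 (95% confidence interval -0.51 to 0.72). For Solyc10g081350 it was 0.15. With median-of-ratios scaling these last values were -0.06 and -0.01.

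Of the 4 dehydrin and LEA genes tested, 1 rose. Solyc01g095140, annotated as a desiccation protectant protein of the Lea14 type and not a dehydrin, was at 49.3, 22.1, 29.0 and 95.7 FPKM in Torin2 replicates 1 to 4, against 8.10, 7.47, 8.27 and 10.8 FPKM in mock replicates 1 to 4. The mock libraries lay close together, and the Torin2 libraries were all higher but differed widely, with replicate 4 at the top and replicate 2 at the bottom although both were of the first kind. The mean was 49.0 ± 33.2 FPKM in Torin2-treated and 8.65 ± 1.44 FPKM in mock-treated seedlings (SD, n = 4 each). The log2 fold change was 2.27 (SE 0.36 and limma adjusted p = 0.000954, over the alternatives 9.56e-05 to 0.00801; exact two-sided permutation p = 0.0286), which is 2.11 once the median over all genes is subtracted. In the first kind of libraries alone it was 2.55 and in the second 1.99, and 1.87 without Torin2 replicate 4. The gene ranked 90 of the 22330 genes by log2 fold change.
The other 3 genes, listed as dehydrins, did not pass the test. Solyc02g084840, the most highly expressed, was at 64.2, 66.4, 85.8 and 83.8 FPKM in Torin2 replicates 1 to 4, against 39.2, 58.2, 69.7 and 74.6 FPKM in mock replicates 1 to 4. The ranges overlapped, and the log2 fold change was 0.34 (95% confidence interval -0.15 to 0.83, limma adjusted p = 0.349). Its neighbour by identifier, Solyc02g084850, averaged 5.44 ± 1.22 FPKM in Torin2-treated and 5.58 ± 1.02 FPKM in mock-treated seedlings (SD, n = 4 each), a log2 fold change of -0.05 (95% confidence interval -0.60 to 0.50). For Solyc01g109920, with 2 to 19 fragments per library, the log2 fold change was 0.27 with a 95% confidence interval of -0.80 to 1.34. The Lea14-type gene made up 23.6% to 51.7% of the summed FPKM of the 4 genes in Torin2-treated and 9.87% to 14.8% in mock-treated seedlings.

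**Figure D3:**
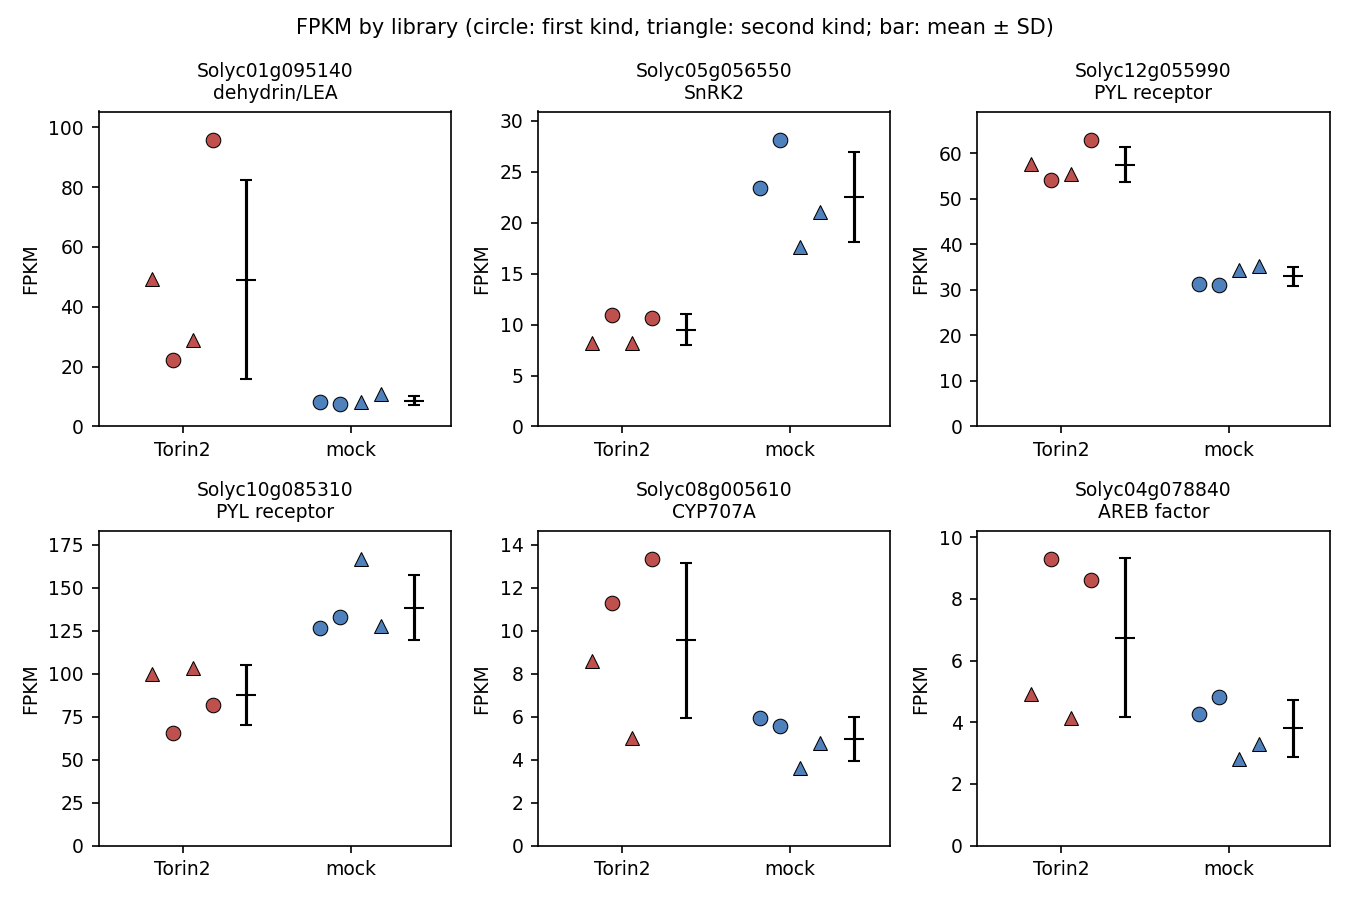
FPKM in each library for the 4 genes that passed the test (Solyc01g095140, Solyc05g056550, Solyc12g055990 and Solyc10g085310) and for the CYP707A gene Solyc08g005610 and the AREB gene Solyc04g078840, which did not, with Torin2 libraries on the left and mock libraries on the right. Circles are libraries of the first and triangles of the second kind, the bars are the mean ± SD of 4 libraries, and in the last 2 panels the highest values are the Torin2 libraries of the first kind.

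The kinds of library were taken from these values, so that differences between them are large by construction and are given as a description. The difference between the kinds was larger than that between Torin2-treated and mock-treated seedlings in 24 of the 36 genes, against 57.4% of all genes. All NCED, CYP707A, PP2C, SnRK2 and AREB genes were lower in the second kind than in the first, with median log2 differences of -0.56, -0.48, -0.70, -0.53 and -0.76 for these families. For the receptor genes the median was 0.01 and 6 of 13 were lower, and for the dehydrin and LEA genes it was 0.08 and 2 of 4 were lower. Of all genes 74.3% were lower in the second kind, with a median of -0.43, and no link with the family was tested. The receptor genes were between 249 and 1134 bp and the PP2C genes between 1527 and 2273 bp long. Over all genes tested, the difference between the kinds had a Spearman's rho of -0.54 with length, and genes are no independent replicates. The part of length in the values of single genes was not tested beyond the removal of the trend.
Within the first kind the median log2 fold change of the 36 genes was 0.32 and 27 were above 0, and within the second kind it was 0.04 and 20 were above 0. The median and the share above 0 over all genes were not taken within either kind. Whether this contrast is particular to the 36 genes was therefore not tested. For no gene did the Torin2 difference itself differ between the kinds in limma's interaction test, where the lowest adjusted p of the 36 genes was 0.598 and 1 gene had an unadjusted p under 0.05.

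**Figure D4:**
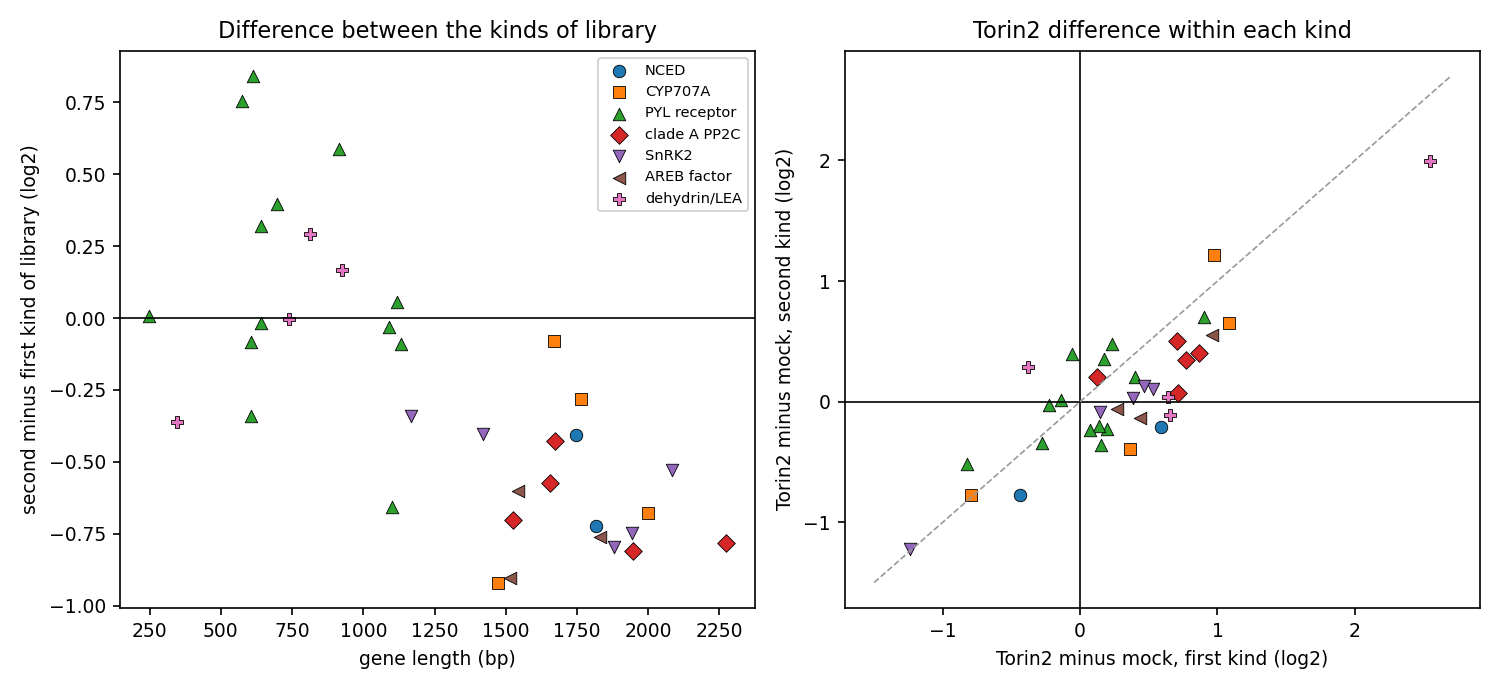
Left, log2 level in the second kind of libraries minus that in the first, against gene length in bp for the 36 genes, with a symbol for each family: the long genes of the PP2C, SnRK2, AREB, NCED and CYP707A families all lie below 0, and the shorter receptor genes on both sides. Right, log2 fold change of Torin2-treated over mock-treated libraries within the first kind (horizontal) and within the second kind (vertical), with a dashed line of equality: Solyc01g095140 lies at 2.55 and 1.99 and Solyc05g056550 at -1.24 and -1.22.

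A further 6 genes were placed in ABA synthesis and ABA responses from general knowledge of tomato, with no annotation in the files or the paper, and all 6 were tested. None passed the test in limma, and 2 had an unadjusted p under 0.05, against 19% of all genes with a higher and 10.1% with a lower value. In limma-voom 1 of the 6 passed, where 9.06% of all genes were higher. Their median log2 fold change was 0.47. The gene that passed in limma-voom, named after its values were seen, was Solyc07g066480, with 1.25 to 2.10 FPKM in Torin2-treated and 0.650 to 1.14 FPKM in mock-treated seedlings and a log2 fold change of 0.88 (limma adjusted p = 0.0798, limma-voom adjusted p = 0.0418). It also passed with median-of-ratios scaling (limma adjusted p = 0.0259), after quantile normalization (limma adjusted p = 0.0309) and with the kind of library as a covariate (limma adjusted p = 0.00409). With that covariate Solyc02g090890 (limma adjusted p = 0.011) and Solyc01g009230 (limma adjusted p = 0.0493) passed as well, where 25.7% of all genes rose. With the length trend removed none of these genes passed. The log2 fold change was then 0.43 for Solyc07g066480 (limma adjusted p = 0.0731), 0.16 for Solyc02g090890 and -0.16 for Solyc01g009230. Solyc10g078770, with 0 to 30 fragments per library, had a log2 fold change of 1.68 (limma adjusted p = 0.165). Listed at 0 in Torin2 replicate 2 and in mock replicate 2, it passed with the replicate block (limma adjusted p = 0.0439) and without Torin2 replicate 2 (limma adjusted p = 0.00315).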

How the data were processed

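RNA was measured in 8 libraries of whole seedlings, 4 per condition. Paired-end reads of 150 bp had been aligned by the authors with HISAT2 to the SL4.0 assembly of tomato, and their deposited values are in FPKM, a column per library. The labels' processing notes also name fastp, FastQC, SAMtools and HTSeq, and the annotation release is not given in the sources used here. The whole fragments behind each FPKM value were recovered, together with the depth and gene lengths, as the smallest whole numbers that fit 1 depth in every library and 1 length for every gene. They summed to between 99.7% and 99.8% of the depth. The floor covers counting error only, as the reads carry no molecular identifiers.

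The conditions were compared on log2(FPKM + 0.1) by limma 3.58.1 (R 4.3.3) with a variance trend, no covariate and Benjamini-Hochberg adjustment over all genes tested, so that fold changes of low genes are understated. Both cut-offs of the paper (adjusted p 0.05, absolute log2 fold change 1) were also applied. Other values came from Python 3.11.15 with scipy 1.17.1. The code was tested on simulated data. The genes and lists were chosen with earlier results of these data known. Shown by library are all genes past the test and the highest expressed gene of each family. Of the genes shown in full, Solyc08g005610, Solyc04g071150, Solyc03g121880 and Solyc04g078840 were added after their values were seen. The names CYP707A4, SAPK7 and Lea14 are those of the study's gene list. Same-numbered libraries are not described as pairs. The alternatives were other pseudocounts, filters, scalings and variances, a replicate block, single libraries left out, the kind of library as a covariate, removal of length trends by loess, limma-voom on recovered fragments and limma's treat. A planned list of further genes by reference description was not made, as the reference table used here holds no descriptions. No sequences were used.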

Additional observations from a re-analysis of the deposited data

Results flagged for a closer look

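In 2 of 72 groups of 4 libraries, 1 library lay far from the other 3, beyond Dixon's 95% critical value for the ratio of the gap to its nearest neighbour over the whole range (log2 values). Chance gives about 1 in 20 groups, or 3.6 of 72. Both were Torin2 replicate 1 in a receptor gene. Solyc08g082180 was at 24.6 FPKM there, against 36.4 to 38.6 FPKM in the other Torin2 libraries (ratio 0.871). Solyc05g052420 was at 45.4 FPKM there, against 38.0 to 38.3 FPKM in the others (ratio 0.957).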

How the results depend on the processing

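Of 681 values of the 36 genes under 19 refitted alternatives, 619 had the direction and the side of the threshold reported above, 9 were no longer past the test, 16 came to pass it, and 37 had the opposite direction. No gene past the test in either fit changed direction, and the 15 genes that did had log2 fold changes of at most 0.27 in size. The cause of these changes was not tested.

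In place of 2 genes that rose there were 7 with the kind of library as a covariate, 6 with the length trend removed, and 2 to 4 with 1 library left out (4 without Torin2 replicate 1). As the kinds come from these values, that covariate takes up variance by its making. Of all genes, 25.7% rose and 12.6% fell with the covariate, and 11.7% rose and 13.9% fell with the length trend removed. The shares over all genes were not taken for the other fits of this paragraph. In place of 2 genes that fell there was 1 with a variance without trend, 1 with the replicate block, and 1 to 2 with 1 library left out (1 in each fit but those without Torin2 replicate 1 or 3), and there were 3 with quantile normalization, the covariate or the length trend removed. Past both cut-offs there was 1 gene higher, with 0 under limma's treat and 1 to 2 with 1 library left out (2 without Torin2 replicate 3), and 1 gene lower, with 2 after quantile normalization and 0 under treat. Under treat 1 gene higher and 0 lower had an unadjusted p under 0.05. Beside these the replicate block changed no call among the 36 genes, and it gained that of Solyc10g078770 among the 6 further genes (limma adjusted p = 0.0439). The deviations of same-numbered libraries from their condition means correlated at -0.38, 0.38, 0.40 and -0.25 for replicates 1 to 4. Replicates 2 and 3 join libraries of the same kind, and replicates 1 and 4 join libraries of different kinds. These correlations therefore cannot decide whether same-numbered libraries are paired.

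The opposite direction had these log2 fold changes. After quantile normalization they were -0.067 for Solyc07g056570, 0.011 for Solyc08g076960, -0.072 for Solyc03g096670, -0.032 for Solyc11g044560 and -0.071 for Solyc10g081350, with median-of-ratios scaling -0.13 for Solyc01g103940, -0.056 for Solyc11g044560 and -0.0085 for Solyc10g081350, and with the length trend removed 0.020 for Solyc08g082180 and -0.13 for Solyc01g103940. With 1 library left out they ran from -0.0043 to 0.48 for Solyc07g056570, -0.13 to 0.13 for Solyc04g078900, -0.18 to 0.069 for Solyc08g076960, -0.27 to 0.052 for Solyc03g007310, -0.15 to 0.22 for Solyc09g015380, -0.31 to 0.093 for Solyc12g095970, -0.10 to 0.12 for Solyc08g082180, -0.13 to 0.43 for Solyc10g076410, -0.15 to 0.044 for Solyc01g095700, -0.12 to 0.29 for Solyc03g096670, -0.20 to 0.23 for Solyc01g103940, -0.050 to 0.38 for Solyc11g044560, -0.094 to 0.47 for Solyc10g081350, -0.16 to 0.094 for Solyc02g084850 and -0.028 to 0.82 for Solyc01g109920.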
